A study of Homo sapiens with 12 samples.

Results

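The 8 genes described here encode matrix proteases and the proteins that hold them in check: the collagenase MMP1, the gelatinase MMP2, the membrane-bound metalloprotease MMP14, the tissue inhibitors of metalloproteases TIMP1, TIMP2 and TIMP3, the urokinase plasminogen activator PLAU and its receptor PLAUR. They were chosen by symbol, and all 8 were found among the 22650 gene symbols listed in the files. The libraries hold RNA of Panc1 and MiaPaCa2, established human pancreatic ductal adenocarcinoma lines. In each line, cells in which ASAP2 had been knocked out were set against wild-type cells, with 3 libraries per group and 12 in all: ASAP2 knockout Panc1, wild-type Panc1, ASAP2 knockout MiaPaCa2 and wild-type MiaPaCa2. ASAP2 switches off Arf GTPases, which direct membrane traffic. The sources used here do not state how the knockout was made, how many clones it rests on or whether replicate libraries are separate cultures. The p-values therefore measure only the spread between these libraries, which may be technical.

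Metalloproteases are made as inactive precursors and act outside the cell or at its surface. MMP14 sits in the plasma membrane, cuts collagen and activates the MMP2 precursor, a step in which a TIMP2 molecule bridges MMP14 and the MMP2 precursor. At higher amounts TIMP2 blocks both enzymes. TIMP1 is a weak inhibitor of MMP14 and a good one of the secreted enzymes, and TIMP3 is held in the matrix and also inhibits ADAM proteases. Urokinase turns plasminogen into plasmin, and its receptor PLAUR holds it at the cell surface. In pancreatic cancer these proteins are known from both tumour and stromal cells.

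Levels are given as FPKM, a read density scaled by transcript length and library size, as deposited. Levels of different genes can therefore be set side by side. Tests were made with limma on log2(FPKM + 1), and a gene was called at a Benjamini-Hochberg adjusted p below 0.05 over 13340 tested genes. Log2 changes are on that scale, which understates changes of low genes. Of the 8 genes, 6 passed the filter (in either line, the 6 libraries averaging 1 FPKM or more), and MMP1 and TIMP3 did not.

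The libraries listed 17958 to 19105 genes each, and values of all tested genes correlated at 0.9936 to 0.9971 within a group. Of 7 duct epithelium markers, 7 had a mean of at least 1 FPKM in both Panc1 groups and 5 in both MiaPaCa2 groups, where EPCAM was not listed and KRT7 stayed below that level. The markers of other cell types that reached it were ACTA2 (knockout Panc1), COL1A2 (MiaPaCa2), LYZ (MiaPaCa2) and CD68 (both lines), while DCN, FAP and CD3E were not listed and the 3 endothelial markers summed to at most 0.03 FPKM. In MiaPaCa2 the 5 leukocyte markers summed to 130.2 to 154.6 FPKM in knockout and 51.1 to 64.0 FPKM in wild-type libraries, and LYZ alone averaged 122 FPKM in knockout and 28.7 FPKM in wild-type libraries. CD68 went the other way, at 18.7 FPKM in knockout and 26.7 FPKM in wild-type MiaPaCa2. The 6 fibroblast markers summed there to 147 to 154 FPKM in knockout and 113 to 115 FPKM in wild-type libraries. Nearly all of that sum was COL1A2, at 150 FPKM in knockout and 114 FPKM in wild-type libraries. The 7 duct markers summed to 937 to 968 FPKM in knockout and 1283 to 1333 FPKM in wild-type libraries. KRT8, KRT18 and KRT19 were lower in knockout MiaPaCa2, and SOX9 and MUC1 slightly higher. The sums thus follow single genes and do not show a shift of cell type. The part of these shifts in the MiaPaCa2 results was not tested. ASAP2 itself averaged 13.8 ± 0.978 FPKM in knockout and 36.9 ± 2.04 FPKM in wild-type Panc1 libraries. In MiaPaCa2 it averaged 12.4 ± 1.29 FPKM in knockout and 13.5 ± 0.320 FPKM in wild-type libraries (SD, n = 3 each), so its mRNA does not check the MiaPaCa2 labels.

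Across the knockout comparisons, TIMP2 rose and TIMP1 fell in both lines, PLAU rose about 2.1-fold in Panc1, and MMP14 rose about 1.7-fold in MiaPaCa2. In Panc1, TIMP2 and PLAU were called higher and TIMP1 lower, 3 of the 6 tested genes, where 63.5% of all tested genes were called (21.8% higher and 41.6% lower). In MiaPaCa2, MMP14 and TIMP2 were called higher and TIMP1 lower, again 3 of 6, where 34.1% of all genes were called (17.8% higher and 16.3% lower). The size of the knockout change differed between the lines by limma's test for 4 of the 6 (TIMP2 and PLAU higher in Panc1, MMP14 and TIMP1 lower), where 57.4% of all genes differed (20% higher and 37.4% lower). These shares do not set the genes apart from the rest of the transcriptome. MMP2 counts among the 6 but passed the filter through Panc1 alone. In MiaPaCa2 it averaged 0.005 FPKM in knockout and 0.029 FPKM in wild-type libraries. At that level it could hardly be called there, and its difference between the lines rests on Panc1. The median log2 change of all tested genes was -0.10 in Panc1 and 0.01 in MiaPaCa2. Of all calls in Panc1, 65.6% were lower as deposited, 47.9% after median-ratio scaling, 52% after quantile normalization and 73.8% on the TPM scale. In bulk RNA, fewer cells that make a transcript and less transcript per cell cannot be told apart.

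**Figure D1:**
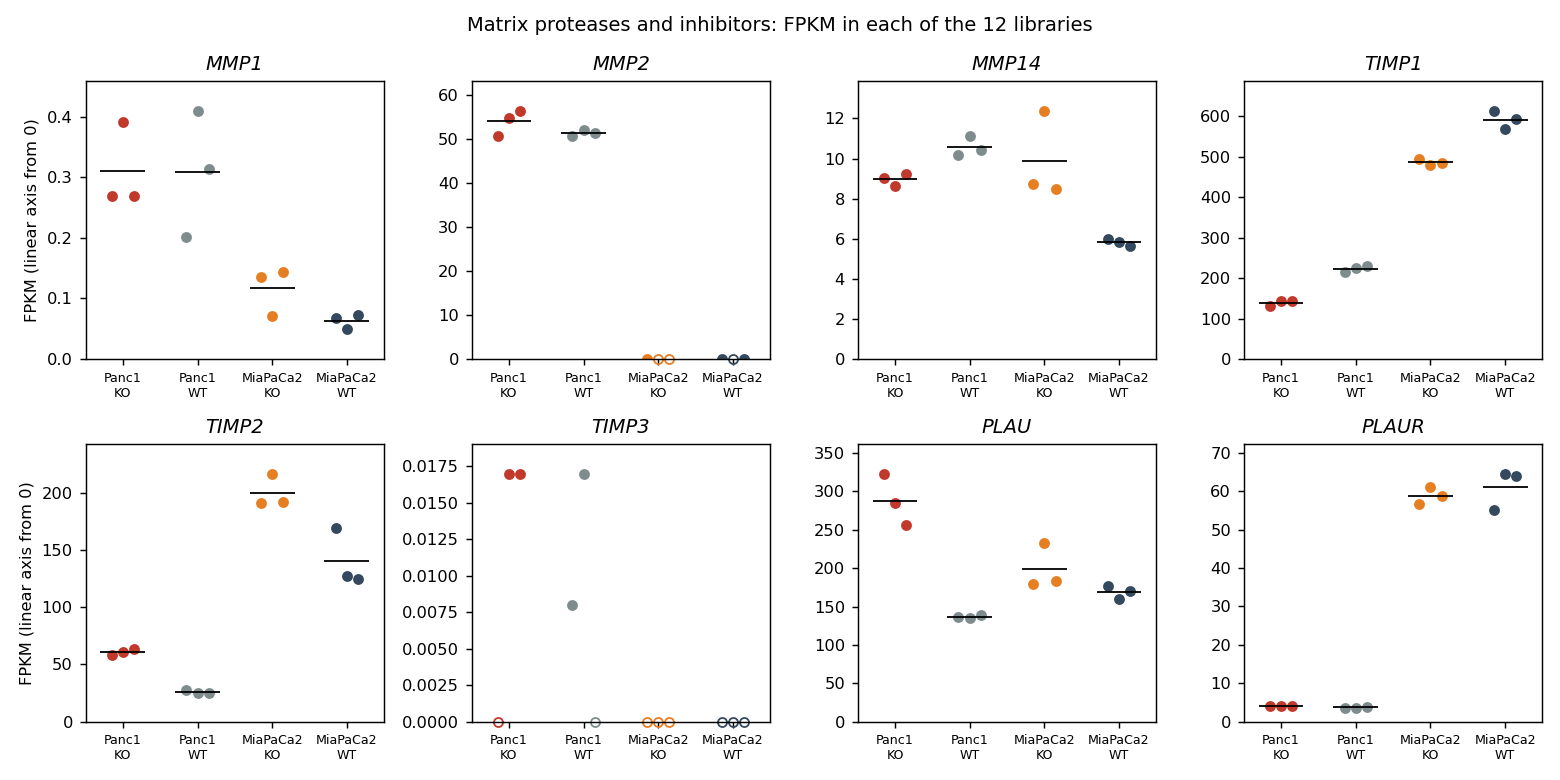
FPKM of the 8 genes in each library, 1 panel per gene with its own linear axis from 0, knockout beside wild type for each line. Filled points are libraries that list the gene, open points are libraries that do not list it, and bars are means of 3 where all 3 list it. TIMP1 was lower and TIMP2 higher in all knockout libraries of both lines, and MMP2 was at 50.7 FPKM or more in every Panc1 library and near 0 in MiaPaCa2.

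MMP1, the interstitial collagenase that opens the collagen triple helix, was close to silent in both lines. Its levels were 0.270, 0.391 and 0.270 FPKM in knockout Panc1 and 0.202, 0.410 and 0.314 FPKM in wild-type Panc1. In MiaPaCa2 they were 0.136, 0.071 and 0.144 FPKM in knockout and 0.067, 0.049 and 0.073 FPKM in wild-type libraries. The knockout and wild-type values overlapped in both lines, and no adjusted p is given because the gene did not pass the filter. It lies on chromosome 11, 102660132 to 102668891, on the reverse strand in GRCh37 (hg19), the build of the files.

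MMP2, which degrades gelatin and collagen IV of basement membranes, differed far more between the lines than between the genotypes. Its levels were 50.7, 54.8 and 56.3 FPKM in knockout Panc1 and 50.7, 52.1 and 51.4 FPKM in wild-type Panc1. These groups overlapped, and the log2 change was 0.07 (95% interval -0.05 to 0.18, limma adjusted p = 0.274). It was 0.20 and called after median-ratio scaling (adjusted p = 0.00708), and -0.007 and not called on the TPM scale (adjusted p = 0.939). In MiaPaCa2 it was listed in 1 knockout library, at 0.015 FPKM, and in 2 wild-type libraries, at 0.073 and 0.015 FPKM. The other 3 MiaPaCa2 libraries did not list it, so no fold between genotypes is given there. The higher of these values came from MiaPaCa2 wild-type replicate 1, a library in which 36 genes, chosen for at least 20 FPKM in every Panc1 library and a median below 0.1 FPKM in MiaPaCa2, had a median of 0.23% of their Panc1 level, where the other MiaPaCa2 libraries had medians of 0 to 0.0213%. The part of such reads in the MMP2 value was not tested, and MMP2 itself meets the rule and is among the 36 genes. The gene lies on chromosome 16, 55423612 to 55540603, on the forward strand.

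MMP14, the membrane-type metalloprotease that activates MMP2, was expressed at a moderate level in all groups. It read 9.01, 8.65 and 9.25 FPKM in knockout Panc1 and 10.2, 11.1 and 10.4 FPKM in wild-type Panc1. The knockout values lay below the wild-type ones without overlap, but the log2 change of -0.22 (SE 0.10, 95% interval -0.44 to 0.01) was not called (adjusted p = 0.0836). In MiaPaCa2 it read 8.75, 12.4 and 8.50 FPKM in knockout and 5.98, 5.86 and 5.65 FPKM in wild-type libraries. All knockout values there were above all wild-type values, and MMP14 rose by 0.65 (SE 0.10, adjusted p = 4.67e-04), with knockout replicate 2 the highest. Without that library the MiaPaCa2 change was 0.495 and still called. The Panc1 decrease was called in that fit (adjusted p = 0.00182), with Panc1 fitted alone (adjusted p = 0.00615) and on the TPM scale (-0.30, adjusted p = 0.0365). The difference between the lines was itself called, at -0.87 for Panc1 minus MiaPaCa2 (SE 0.14, adjusted p = 3.09e-04). MMP14 lies on chromosome 14, 23305769 to 23318250, on the forward strand, and the 79 tested genes within 5 Mb of it had a median change of 0.06 relative to all genes in MiaPaCa2, where MMP14 stood at 0.64.

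TIMP1 was the most abundant TIMP in every group and was lower in the knockout libraries of both lines. In Panc1 it read 131, 144 and 143 FPKM in knockout and 216, 225 and 230.0 FPKM in wild-type libraries. The groups were well apart, and TIMP1 fell by 0.68 on the log2 scale (SE 0.05, adjusted p = 1.29e-07), to 0.622 of the wild-type mean. In MiaPaCa2 it read 495, 479 and 485 FPKM in knockout and 613, 568 and 593 FPKM in wild-type libraries. There the decrease was smaller, 0.822 of the wild-type mean, again without overlap (log2 change -0.28, SE 0.05, adjusted p = 6.15e-04). The decrease was larger in Panc1, with a difference of -0.40 (SE 0.06, adjusted p = 2.49e-04). TIMP1 lies on chromosome X, 47441807 to 47446188, forward strand, inside SYN1, a gene on the other strand that read 0.31 FPKM in knockout Panc1 and 0.20 FPKM in wild-type Panc1 on average. The 65 tested genes within 5 Mb of TIMP1 had a median of -0.13 relative to all genes in Panc1, where TIMP1 stood at -0.58.

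TIMP2, the inhibitor that also bridges MMP14 and the MMP2 precursor, moved the other way. In Panc1 it read 58.6, 60.5 and 63.8 FPKM in knockout and 28.1, 25.1 and 25.4 FPKM in wild-type libraries. The groups were far apart, and TIMP2 rose by 1.19 (SE 0.10, adjusted p = 7.07e-07), 2.32-fold in the means. In MiaPaCa2 it read 190.6, 217 and 192 FPKM in knockout and 169, 127 and 125 FPKM in wild-type libraries. The groups did not overlap, though wild-type replicate 1 came close to the knockout values, and the log2 change was 0.52 (SE 0.10, adjusted p = 0.0017), 1.42-fold in the means. Without that replicate the change was 0.66. The increase was larger in Panc1 than in MiaPaCa2, by 0.67 (SE 0.14, adjusted p = 0.00144). TIMP2 lies on chromosome 17, 76849059 to 76921469, reverse strand, and contains CEP295NL, which averaged at most 0.652 FPKM in any group. The 149 tested genes within 5 Mb had a median of 0.21 relative to all genes in Panc1 and -0.05 in MiaPaCa2, where TIMP2 stood at 1.29 and 0.51.

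TIMP3, the matrix-bound inhibitor, was all but absent. It was listed in 2 knockout Panc1 libraries, both at 0.017 FPKM, in 2 wild-type Panc1 libraries, at 0.008 and 0.017 FPKM, and in 0 MiaPaCa2 libraries. These values stand in steps and are at the lower end of what the files can show. The gene lies on chromosome 22, 33197691 to 33259028, forward strand, within SYN3 on the other strand, which was also near 0.

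**Figure D2:**
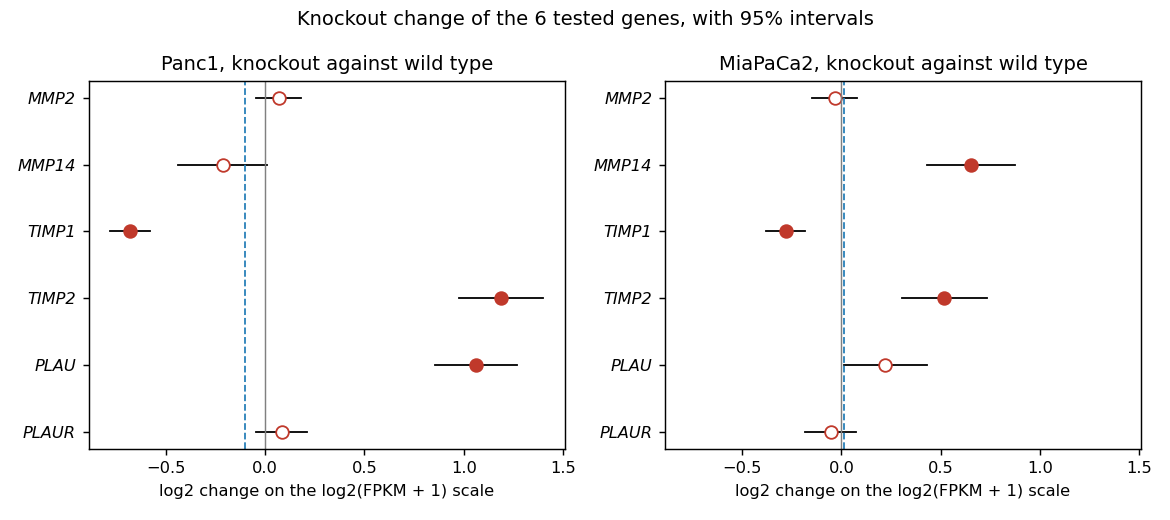
Log2 change of knockout against wild type for the 6 tested genes in each line, with 95% intervals from limma. Filled points passed an adjusted p below 0.05, open points did not, the grey line is 0 and the dashed line is the median of all tested genes. TIMP2 and TIMP1 were called in opposite directions in both lines, PLAU in Panc1 and MMP14 in MiaPaCa2.

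PLAU, the urokinase that starts plasmin formation at the cell surface, was among the most abundant transcripts of both lines. In Panc1 it read 323, 285 and 257 FPKM in knockout and 137, 135 and 139 FPKM in wild-type libraries. PLAU rose 2.11-fold in the means (log2 change 1.06, SE 0.10, adjusted p = 1.43e-06), and its rank by mean level was 185 in knockout and 405 in wild-type Panc1. The knockout libraries were more spread than the wild-type ones, with replicate 1 highest. In MiaPaCa2 it read 179.6, 233 and 183 FPKM in knockout and 177, 159.9 and 171 FPKM in wild-type libraries. The groups did not overlap but knockout replicates 1 and 3 lay just above the wild-type range, and the change of 0.22 was not called (95% interval 0.01 to 0.43, adjusted p = 0.0954). Without knockout replicate 2, the highest library, it was 0.10. The change in Panc1 exceeded that in MiaPaCa2 by 0.84 (SE 0.14, adjusted p = 2.44e-04). PLAU lies on chromosome 10, 75668935 to 75677254, forward strand.

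PLAU shares its locus with C10orf55, a long noncoding RNA gene on the other strand from 75669727 to 75682535. C10orf55 read 40.4, 35.8 and 34.4 FPKM in knockout Panc1 and 18.2, 17.0 and 19.2 FPKM in wild-type Panc1. In MiaPaCa2 it read 22.0, 28.9 and 24.2 FPKM in knockout and 23.8, 23.1 and 22.0 FPKM in wild-type libraries. In Panc1 it thus rose with PLAU, at a lower level. In MiaPaCa2 its groups overlapped, and its log2 change of 0.11 was not called (limma adjusted p = 0.373). As no source says whether counting used strand, reads of these genes cannot be told apart. The 63 tested genes within 5 Mb of PLAU had a median of 0.05 relative to all genes in Panc1, where PLAU stood at 1.16.

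PLAUR, the receptor that anchors urokinase in the membrane, differed between the lines far more than between genotypes. In Panc1 it read 4.05, 4.04 and 4.06 FPKM in knockout and 3.68, 3.68 and 3.95 FPKM in wild-type libraries. The knockout values were slightly higher without overlap, and the log2 change of 0.08 (95% interval -0.05 to 0.21) was not called (adjusted p = 0.245). In MiaPaCa2 it read 56.6, 60.9 and 58.8 FPKM in knockout and 54.97, 64.6 and 64.0 FPKM in wild-type libraries, with overlap (log2 change -0.05, 95% interval -0.18 to 0.08, adjusted p = 0.534). The small Panc1 difference was called after rescaling by the median ratio (0.19, adjusted p = 0.0181) and after quantile normalization (0.24, adjusted p = 0.00586). PLAUR lies on chromosome 19, 44150247 to 44174699, reverse strand.

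Upstream sequences are shown for MMP14, TIMP1, PLAU and PLAUR, to set the start regions of a gene that rose (PLAU), one that fell (TIMP1), one called in MiaPaCa2 (MMP14) and one not called (PLAUR) side by side. They are the 250 bases before a RefSeq start in GRCh38.p14, read 5′ to 3′ on the strand of the gene. A stretch just after the start was found in 5 annotated transcripts of MMP14, 2 of PLAU, 5 of PLAUR and 0 of TIMP1. The TIMP1 start was therefore not matched to an annotated transcript. TIMP3 was also in the table, and MMP1, MMP2 and TIMP2 are not shown. Capitals mark the letters GGGCGG, the core of an Sp1 site, or TGANTCA, an AP-1 site, on either strand.
MMP14 at chr14:22836335-22836584, forward: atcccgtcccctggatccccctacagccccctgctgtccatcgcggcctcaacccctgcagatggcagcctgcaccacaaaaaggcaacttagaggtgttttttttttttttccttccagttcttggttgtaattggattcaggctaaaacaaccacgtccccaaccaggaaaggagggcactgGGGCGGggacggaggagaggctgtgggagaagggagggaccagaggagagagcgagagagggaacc
TIMP1 at chrX:47582186-47582435, forward: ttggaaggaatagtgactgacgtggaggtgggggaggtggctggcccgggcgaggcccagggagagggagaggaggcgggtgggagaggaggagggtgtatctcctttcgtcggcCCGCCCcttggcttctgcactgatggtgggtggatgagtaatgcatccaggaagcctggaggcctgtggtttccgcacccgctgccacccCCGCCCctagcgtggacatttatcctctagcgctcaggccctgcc
PLAU at chr10:73910882-73911131, forward: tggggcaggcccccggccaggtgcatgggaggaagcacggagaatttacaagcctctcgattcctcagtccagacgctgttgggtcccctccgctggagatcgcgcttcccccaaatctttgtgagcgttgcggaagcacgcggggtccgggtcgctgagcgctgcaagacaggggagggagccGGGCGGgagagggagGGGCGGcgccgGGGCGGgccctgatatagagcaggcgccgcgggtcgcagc
PLAUR at chr19:43670170-43670419, reverse: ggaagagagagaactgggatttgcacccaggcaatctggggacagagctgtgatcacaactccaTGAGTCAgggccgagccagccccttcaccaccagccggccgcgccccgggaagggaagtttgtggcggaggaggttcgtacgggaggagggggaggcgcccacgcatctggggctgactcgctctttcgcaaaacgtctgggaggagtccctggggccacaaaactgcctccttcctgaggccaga

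GGGCGG occurred 3 times before this PLAU start, 2 times before TIMP1 and 1 time before MMP14, and it was found in 42.6% of 35116 such upstream windows. TGANTCA was found before PLAUR, 186 bases upstream of the start, and in 6.6% of all windows. It was not among the letters of the other windows shown. TATAAA, the TATA box, was in 10.7% of all windows and in 0 of these. PLAU has another RefSeq start upstream, at the end of a window with 46.8% G and C against 68.8% for the one shown, in which none of the letters was found. A match of letters is a description of the sequence and not of binding.

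Set against each other within a library, the inhibitors changed their balance. The ratio of TIMP1 to TIMP2 FPKM was 2.23, 2.38 and 2.25 in knockout Panc1 and 7.67, 8.96 and 9.04 in wild-type Panc1. In MiaPaCa2 it was 2.60, 2.21 and 2.53 in knockout and 3.63, 4.46 and 4.77 in wild-type libraries. In both lines every knockout ratio lay below every wild-type ratio, and the knockout ratios of both lines lay between 2.21 and 2.60. The 3 TIMP levels summed to 200.2 ± 9.66 FPKM in knockout and 249.9 ± 5.80 FPKM in wild-type Panc1. In MiaPaCa2 they summed to 686 ± 9.42 FPKM in knockout and 732 ± 44.9 FPKM in wild-type libraries, with overlap (SD, n = 3 each).

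TIMP2 relative to MMP14 averaged 6.80 ± 0.259 in knockout and 2.49 ± 0.254 in wild-type Panc1. In MiaPaCa2, where both transcripts rose, it averaged 20.6 ± 2.73 in knockout and 24.0 ± 3.68 in wild-type libraries, with overlap. Against MMP2, which was compared in Panc1 alone, TIMP2 stood at 1.13 ± 0.0254 in knockout and 0.511 ± 0.0388 in wild-type libraries. The ratio of PLAU to its receptor was 71.2 ± 8.40 in knockout and 36.3 ± 1.04 in wild-type Panc1. In MiaPaCa2 this ratio was 3.37 ± 0.394 in knockout and 2.79 ± 0.382 in wild-type libraries, with overlap (SD, n = 3 each, no test).

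**Figure D3:**
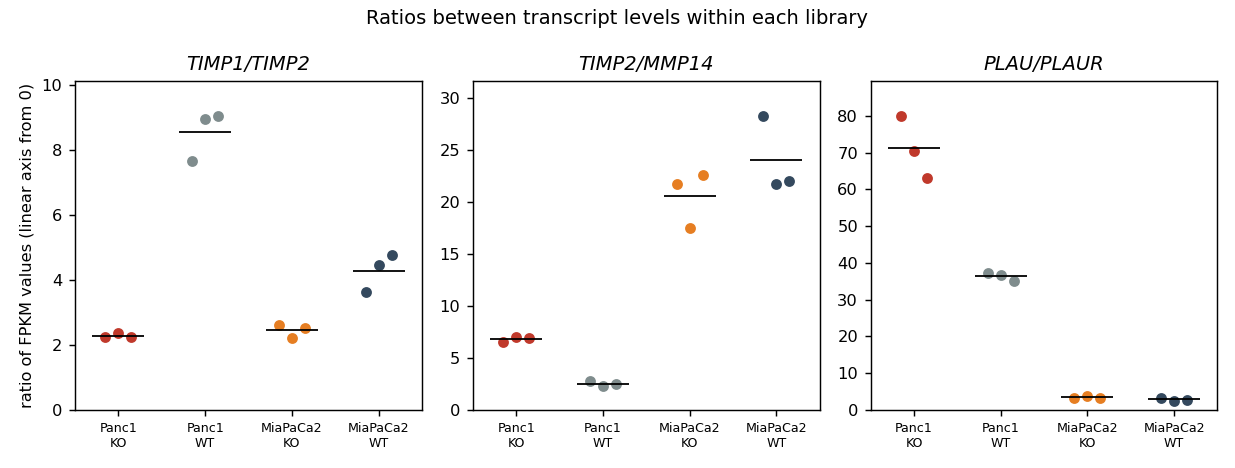
Ratios between FPKM values within each library for 3 pairs of transcripts, on linear axes from 0, with knockout beside wild type for each line and bars at the mean of 3 libraries. TIMP1/TIMP2 was 2.21 to 2.60 in all knockout libraries and 3.63 to 9.04 in all wild-type libraries.

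Between the wild-type lines, Panc1 had MMP2 and more MMP14, and MiaPaCa2 had more of both abundant TIMPs and of the urokinase receptor. All 6 tested genes were called, 2 higher and 4 lower in wild-type Panc1, where 82.7% of all tested genes were called (41.8% higher and 40.9% lower). MMP2 was higher in wild-type Panc1 by 5.67 (SE 0.05, adjusted p = 1.52e-16), which rests on values near 0 in MiaPaCa2 and on the added 1 FPKM. MMP14 was higher in wild-type Panc1, 1.81-fold (log2 difference 0.76, adjusted p = 1.37e-05). TIMP1 stood at 0.378 and TIMP2 at 0.187 of the MiaPaCa2 level in wild-type Panc1 (log2 differences -1.40 and -2.36, adjusted p = 8.3e-12 and 9.28e-11). PLAUR stood at 0.062 of it (log2 difference -3.70, adjusted p = 8.11e-15). PLAU was the closest, at 0.809 (log2 difference -0.30, adjusted p = 0.0106), and this difference was not called on the TPM scale (-0.21, adjusted p = 0.0753).

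Over the 4 groups, TIMP1 was highest in wild-type MiaPaCa2, then knockout MiaPaCa2, wild-type Panc1 and knockout Panc1, and no neighbours in this order overlapped. TIMP2 ran from knockout MiaPaCa2 through wild-type MiaPaCa2 and knockout Panc1 to wild-type Panc1, also without overlap. For PLAU the order was knockout Panc1, knockout MiaPaCa2, wild-type MiaPaCa2 and wild-type Panc1. The MiaPaCa2 neighbours did not differ by the test, and the knockout groups of the lines were not tested against each other. MMP14 was near 10 FPKM in 3 groups whose values overlapped in part and was lowest in wild-type MiaPaCa2.

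The genes whose profile over the 12 libraries lay closest to each of these were found by the root mean square difference of centred log2 values. For PLAU the closest of all tested genes was C10orf55, at 0.07, its overlapping partner. Next came AKNA at 0.09 and ADAMTSL4, of a family of secreted matrix proteins, at 0.13. For TIMP1 they were the Wnt receptor gene FZD4 at 0.06, the ribosomal protein gene RPS7 at 0.09, whose level is uncertain because it has processed copies, and the noncoding SNHG4 at 0.09. FZD4 averaged 7.47 FPKM in knockout and 13.9 FPKM in wild-type Panc1, and 29.5 FPKM in knockout and 35.4 FPKM in wild-type MiaPaCa2. For TIMP2 they were PALM, LITAF and EPB41 at 0.13 to 0.14, of which PALM averaged 6.27 FPKM in knockout and 1.92 FPKM in wild-type Panc1. For MMP14 they were MLF1 at 0.10, the actin-binding ABLIM1 at 0.11 and TMEFF1 at 0.12. MMP2 and PLAUR were matched by genes far higher in 1 line, B3GNT7, the Notch ligand DLL3 and DACT2 for MMP2 and ZSCAN18, the potassium channel gene KCNK5 and MIR137 for PLAUR. The measure was taken over libraries that share 2 lines and 2 genotypes, and it carries no p.

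Most other metalloproteases were hardly expressed. Of 23 MMP genes, 20 were listed in at least 1 library and 8 passed the filter. In knockout Panc1 1 of the 8 was called higher and 0 lower, where 21.8% of all genes were called higher and 41.6% lower. In knockout MiaPaCa2 3 were called higher and 0 lower, where 17.8% of all genes were called higher and 16.3% lower. MMP24, a membrane-type enzyme, was called in both lines: it averaged 3.88 ± 0.113 FPKM in knockout and 3.11 ± 0.191 FPKM in wild-type Panc1, and 3.74 ± 0.144 FPKM in knockout and 3.01 ± 0.1 FPKM in wild-type MiaPaCa2 (log2 changes 0.25 and 0.24, adjusted p = 0.00142 and 0.00468). MMP19 averaged 1.17 FPKM in knockout and 0.896 FPKM in wild-type MiaPaCa2 (log2 change 0.19, adjusted p = 0.0489). The median change of the 8 genes was -0.05 in Panc1 and 0.10 in MiaPaCa2.

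Among 14 inhibitors and activators of metalloproteases, 9 were tested. In Panc1 7 rose and 2 fell (median 0.33, all genes -0.10), and in MiaPaCa2 3 rose and 1 fell (median 0.09, all genes 0.01). Of all tested genes, 21.8% were called higher and 41.6% lower in Panc1, and 17.8% higher and 16.3% lower in MiaPaCa2. PCSK6, a proprotein convertase of the furin family, rose to 12.95 ± 1.07 FPKM in knockout Panc1, against 4.70 ± 0.193 FPKM in wild-type Panc1 (log2 change 1.29, adjusted p = 7.71e-09), and in MiaPaCa2 it averaged 3.76 FPKM in both genotypes. LRP1, the endocytic receptor that clears protease and inhibitor complexes, rose in both lines, by 0.88 in Panc1 (adjusted p = 2.52e-07) and by 0.45 in MiaPaCa2 (adjusted p = 2.6e-04). Its levels were low, at 2.47 FPKM in knockout and 0.886 FPKM in wild-type Panc1. In MiaPaCa2 they were 1.44 FPKM in knockout and 0.791 FPKM in wild-type libraries. BSG, known as an inducer of MMPs in neighbouring cells, averaged 472 ± 30.7 FPKM in knockout and 334 ± 12.9 FPKM in wild-type Panc1, and it was called in MiaPaCa2 as well (log2 changes 0.49 and 0.15, adjusted p = 2.91e-06 and 0.0293). With TIMP1, the convertase gene PCSK7 fell in Panc1, by 0.30 (adjusted p = 5.58e-04), a gene named after its values were seen.

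Of 15 genes of the plasminogen activator system 9 were tested. In Panc1 5 rose and 0 fell (median 0.28), while in MiaPaCa2 1 rose and 2 fell (median -0.03). The shares over all genes were 21.8% higher and 41.6% lower in Panc1, and 17.8% higher and 16.3% lower in MiaPaCa2. SERPINE2, a serpin that inhibits urokinase and thrombin, fell in MiaPaCa2 to 1.27 ± 0.490 FPKM in knockout libraries, against 3.18 ± 0.421 FPKM in wild-type ones (log2 change -0.90, adjusted p = 2.83e-04), and SERPINB8 rose by 0.32 (adjusted p = 0.00838). S100A10 and ENO1, which bind plasminogen at the cell surface, rose in Panc1 by 0.51 and 0.44 (adjusted p = 3.4e-05 and 8.1e-05), and ENO1 fell by 0.23 in MiaPaCa2 (adjusted p = 0.0165). SERPINB6, an intracellular serpin, averaged 68.3 ± 2.91 FPKM in knockout and 52.9 ± 1.42 FPKM in wild-type Panc1 (SD, n = 3 each; log2 change 0.36, adjusted p = 2.18e-05). The genome holds processed copies of ENO1, so its level is uncertain. Plasminogen itself (PLG) and the other activator, PLAT, did not pass the filter, and PLAT read at most 0.524 FPKM.

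Of 27 ADAM and ADAMTS genes 12 were tested, with 3 higher and 4 lower in knockout Panc1 (median 0.01) and 2 higher and 1 lower in knockout MiaPaCa2 (median 0.00). These counts, 7 of 12 in Panc1 and 3 of 12 in MiaPaCa2, stand beside 63.5% and 34.1% of all tested genes called. ADAMTS15, an aggrecan-degrading protease, fell to 16.9 ± 1.56 FPKM in knockout Panc1, against 30.3 ± 0.778 FPKM in wild-type Panc1 (log2 change -0.81, adjusted p = 3.22e-07), and was not listed in any knockout MiaPaCa2 library. ADAM10, a sheddase of many surface proteins, fell in Panc1 by 0.58 (adjusted p = 9.14e-05). ADAMTS14, a procollagen protease, rose by 0.50 there (adjusted p = 6.93e-06), as did ADAM22, which has no active protease site, by 0.47 (adjusted p = 0.00687). ADAMTS13, which cuts von Willebrand factor, was higher in both lines at low levels (log2 changes 0.35 and 0.28, adjusted p = 4.76e-04 and 0.00618). In MiaPaCa2 ADAM15 fell by 0.41 (adjusted p = 0.00195) and ADAMTS4 rose by 0.28 (adjusted p = 0.02).

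Of 23 serine proteases and inhibitors of the cell surface and matrix, 6 were tested, with 1 higher and 3 lower in knockout Panc1 (median -0.13), where 21.8% of all genes were called higher and 41.6% lower. HTRA1, a secreted serine protease, fell to 1.04 ± 0.101 FPKM in knockout Panc1, against 3.83 ± 0.333 FPKM in wild-type Panc1 (log2 change -1.24, adjusted p = 9.2e-09). PRSS23 fell by 0.38 (adjusted p = 2.08e-04) and the elastase inhibitor SERPINB1 by 0.33 (adjusted p = 0.00111), and SPINT2, an inhibitor of hepsin and matriptase, rose by 0.22 (adjusted p = 0.00921). In MiaPaCa2 limma called 0 of the 6, where 34.1% of all genes were called, and 0 of them had an unadjusted p below 0.05.

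**Figure D4:**
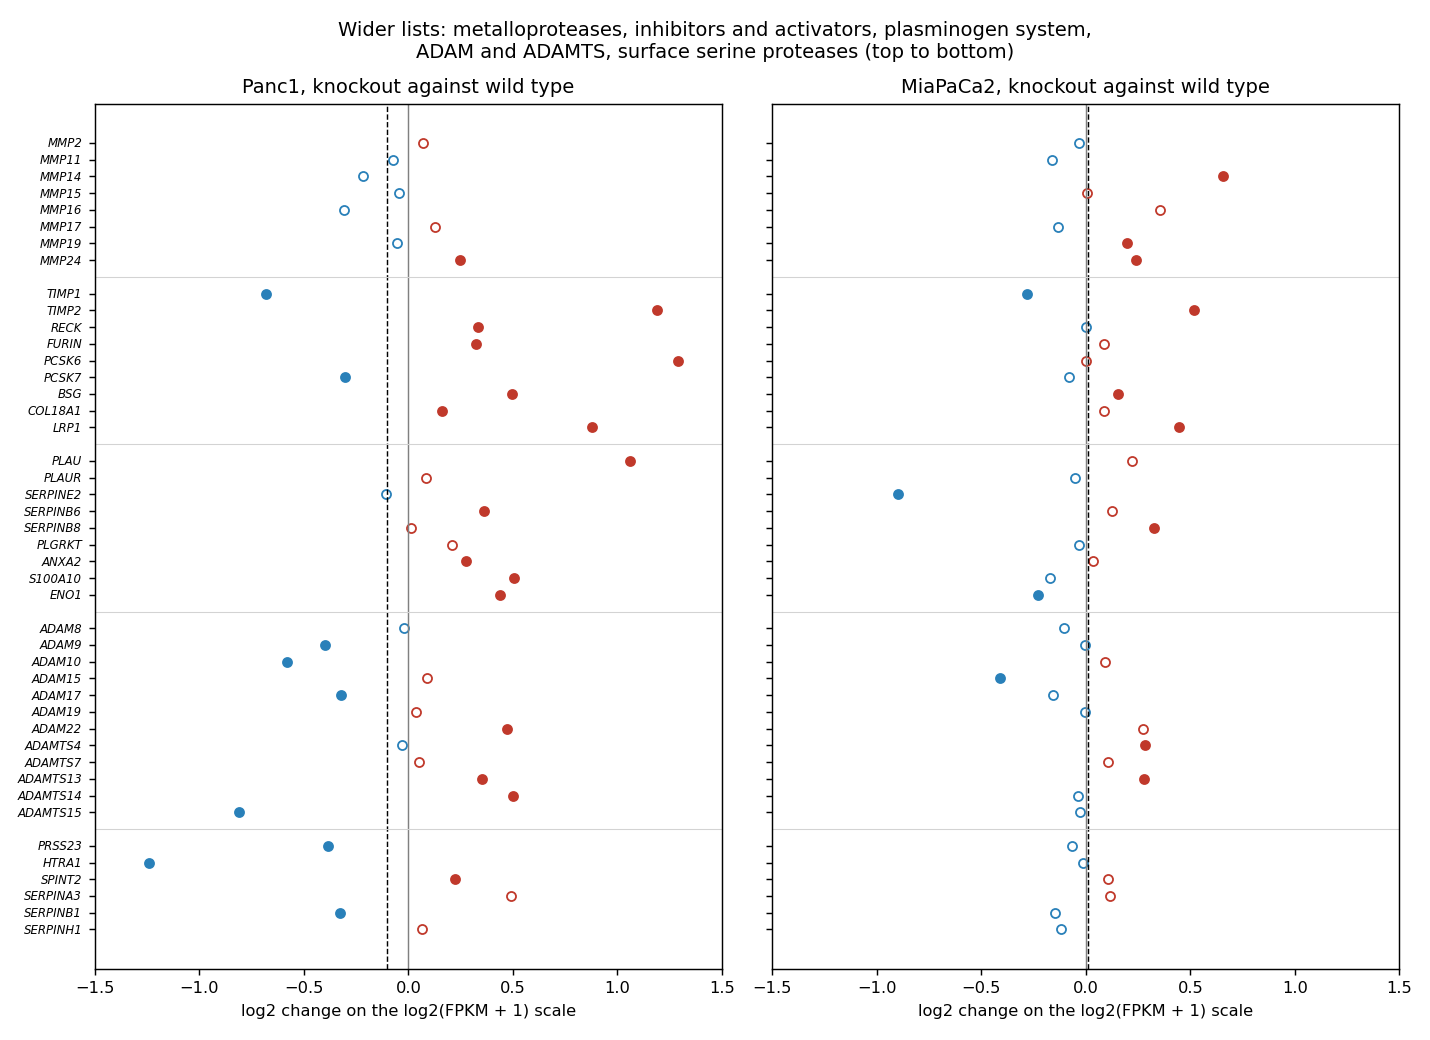
Log2 change of knockout against wild type for the 44 tested genes of the 5 lists, 1 row per gene, in Panc1 (left) and MiaPaCa2 (right). Red points are above 0 and blue points at or below it, filled points passed an adjusted p below 0.05, and the dashed line is the median of all tested genes. PCSK6 was called at 1.29 in Panc1, and ENO1 was called at 0.44 in Panc1 and at -0.23 in MiaPaCa2.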

How the data were processed

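RNA-seq of 12 libraries was used. The authors deposited FPKM per gene symbol, 1 file per library. Per the submitters' processing notes and the series design text, reads were trimmed, filtered and aligned to hg19 by TopHat2 2.0.14, and STAR 2.5.2a is named for the FPKM step. The sources used here do not state strandedness or read number. Genes that a library does not list were set to 0. Depth is unknown. Ratios of low values to the first wild-type library of the same line were densest at 0.999 to 1.06, at 1.466 to 2.069 times the median density. As the same genes have similar levels in libraries of a line, these ratios cannot show what 1 read was worth. Counts were not recovered, no count test was run and no counting interval is given.

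The fit was limma 3.58.1 (R 4.3.3) on log2(FPKM + 1), 1 mean per group over all 12 libraries, 8 residual degrees of freedom, a mean-variance trend and two-sided tests. Genes were tested where the 6 libraries of either line averaged 1 FPKM or more. The fit was tried on simulated data with independent noise, in which few genes changed and only in knockout Panc1. That trial does not cover changes as broad as those called here. The alternatives were a pseudocount of 0.1, no filter, a filter of 5 FPKM, TPM, median-ratio and quantile scaling, no trend, each line alone, a replicate block and each library left out. Added after the data were seen was a fit without MiaPaCa2 knockout replicate 2 and wild-type replicate 1, which deviated together.

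Positions came from GENCODE release 44 on GRCh37, where 92.2% of tested symbols had a single position. Named genes are the 8 members, up to 4 called genes per list and line without overlap and averaging 1 FPKM or more in the higher group, the 3 most alike genes per member, and ASAP2. The genes and lists were chosen with earlier results of these data known. In the lists, 1 gene is not reported here and was left out of the counts.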

Additional observations from a re-analysis of the deposited data

Results flagged for a closer look

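The knockout change differed between the lines, by limma's test of the difference (Benjamini-Hochberg adjusted p below 0.05), for 4 of the 6 tested genes, where 57.4% of all tested genes did. As Panc1 minus MiaPaCa2, the difference was -0.87 for MMP14, -0.40 for TIMP1, 0.67 for TIMP2 and 0.84 for PLAU (log2). TIMP1 and TIMP2 changed in the same direction in both lines and by more in Panc1. MMP14 rose in MiaPaCa2, and its change in Panc1 of -0.22 was not called. MMP2, also among the 6, was near 0 in MiaPaCa2, so its difference between the lines rests on Panc1.

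Among the other named genes the same difference was positive for PCSK6 at 1.29, SERPINE2 at 0.79, S100A10 at 0.68, ENO1 at 0.67, ADAMTS14 at 0.54, ADAM15 at 0.50, LRP1 at 0.43, BSG at 0.34 and SERPINB6 at 0.24. It was negative for HTRA1 at -1.22, ADAMTS15 at -0.79, ADAM10 at -0.67, PRSS23 at -0.31, SERPINB8 at -0.31, ADAMTS4 at -0.31 and MMP19 at -0.25. ENO1 was called in opposite directions in the lines. Some of these genes were near 0 in the other line. ADAMTS15 averaged at most 0.019 FPKM and ADAMTS14 at most 0.279 FPKM in the MiaPaCa2 groups. ADAMTS4 averaged at most 0.039 FPKM and SERPINE2 at most 0.369 FPKM in the Panc1 groups. On the log2(FPKM + 1) scale such levels leave little room for a change. The differences of these genes therefore mostly restate the change in the line that expresses them.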

How the results depend on the processing

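Every called knockout change of TIMP1, TIMP2, PLAU and MMP14 kept its direction and its call under all alternatives run. Over these, TIMP2 ran from 1.13 to 1.32 in Panc1 and 0.439 to 0.658 in MiaPaCa2, TIMP1 from -0.759 to -0.544 and -0.309 to -0.244, PLAU in Panc1 from 0.961 to 1.20 and MMP14 in MiaPaCa2 from 0.495 to 0.743. With median-ratio scaling, under which the median of all genes in Panc1 is 0.00, 5 genes were called in Panc1 in place of 3, MMP2 (0.203) and PLAUR (0.193) being added. Directions turned for MMP2 in Panc1 on the TPM scale (-0.007) and PLAUR in MiaPaCa2 with quantile normalization (0.015), neither called. Leaving out each library in turn gave 3 to 4 calls in Panc1, 3 in MiaPaCa2, 4 to 5 for the difference and 6 between wild-type lines. PLAU in MiaPaCa2 was 0.102 without knockout replicate 2. Without MiaPaCa2 knockout replicate 2 and wild-type replicate 1, PLAUR in MiaPaCa2 was called at -0.154, which made 4 calls there. With the replicate number as a block the counts were 3, 3, 4 and 6, as without it. Same-numbered libraries correlated in their deviations at -0.165 to 0.078, and other-numbered ones at -0.192 to 0.254. With 3 libraries per group, these values cannot decide whether the numbers pair the samples. Values near 0 limit MMP1, TIMP3 and, in MiaPaCa2, MMP2.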

Other observations

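Traces of the other line's genes differed between libraries. There were 8 genes with at least 20 FPKM in every MiaPaCa2 library and a median below 0.1 FPKM in Panc1. Their median level, as a share of their MiaPaCa2 mean, was 0.0116%, 0.0839% and 0.424% in knockout Panc1 replicates 1, 2 and 3, and 1.18%, 0.0064% and 0.025% in wild-type Panc1 replicates 1, 2 and 3. Without wild-type Panc1 replicate 1, the Panc1 changes of TIMP1, TIMP2 and PLAU were -0.71, 1.24 and 1.06 (log2), all still called.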
